A study of Mus musculus with 12 samples.

Results

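Keratin mRNAs were followed by RNA-seq in the maxillary prominence of wild type C57BL/6 mouse embryos. The 12 libraries cover embryonic days 10.5 (E10.5), 11.5, 12.5 and 14.5, each stage being represented by 3 of them. The keratins were taken as every gene whose symbol is Krt followed by digits alone, which gave 50 of the 53801 genes in the count files. Symbols that end in a letter, such as Krt6a and Krt33b, fall outside that rule, and Krt85 is not analysed here. The maxillary prominence is the facial swelling that forms the upper jaw and palatal shelves. It consists mostly of neural crest mesenchyme under a thin surface epithelium, and it later carries the rows of whisker follicles. All groups share genotype and strain, and the labels set them apart by age. Whole prominences were dissected, and the labels speak of tissue from 7 littermates without saying whether that number is per library. The libraries of a stage are called independent RNA samples. Whether separate litters were used is not stated, and the p-values speak of the variation among the sequenced samples only, which may be technical. The last stage is described apart from the earlier ones, and its replicate 1 is titled as consisting of 2 parts, taken here as a single library. Age and any difference in how the E14.5 samples were handled cannot be told apart.

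Keratins are the intermediate filament proteins of epithelial cells. A filament is built from pairs of an acidic type I and a neutral to basic type II keratin, and the pair in use marks the kind of epithelium. Krt8 and Krt18 are the pair of simple epithelia and early surface ectoderm, Krt5 and Krt14 that of the basal layer of stratified epithelia, Krt1 and Krt10 that of the suprabasal epidermis, and Krt4 and Krt13 that of wet mucosa. Further pairs are used in the inner root sheath, which moulds the growing hair, and in the hair shaft itself.

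Of the 50 keratins, 26 were type I and 24 type II, and every one had at least 1 count in some library. A stage mean of 1 CPM (counts scaled to a library total of 1000000 counts in genes) or more was reached by 25. A count in every library was found for 15. The filter on low counts left 29 for testing with edgeR's quasi-likelihood test on all 18365 genes that passed it. Of these 29, 14 did not have 10 counts in at least 3 of the 9 libraries before E14.5, so several entered the test through their E14.5 level and had to differ. The 21 keratins that were not tested stayed at or below 0.566 CPM in every library and held at most 52 counts over all 12. The highest stage mean was at E14.5 for 38 of the 50, at E10.5 and E12.5 for 5 each and at E11.5 for 2. The summed keratin level lay between 241 and 274 CPM in the E10.5 libraries, 368 and 504 CPM a day later, 384 and 852 CPM in those of E12.5, and 1622 and 2732 CPM in those of E14.5.

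**Figure D1:**
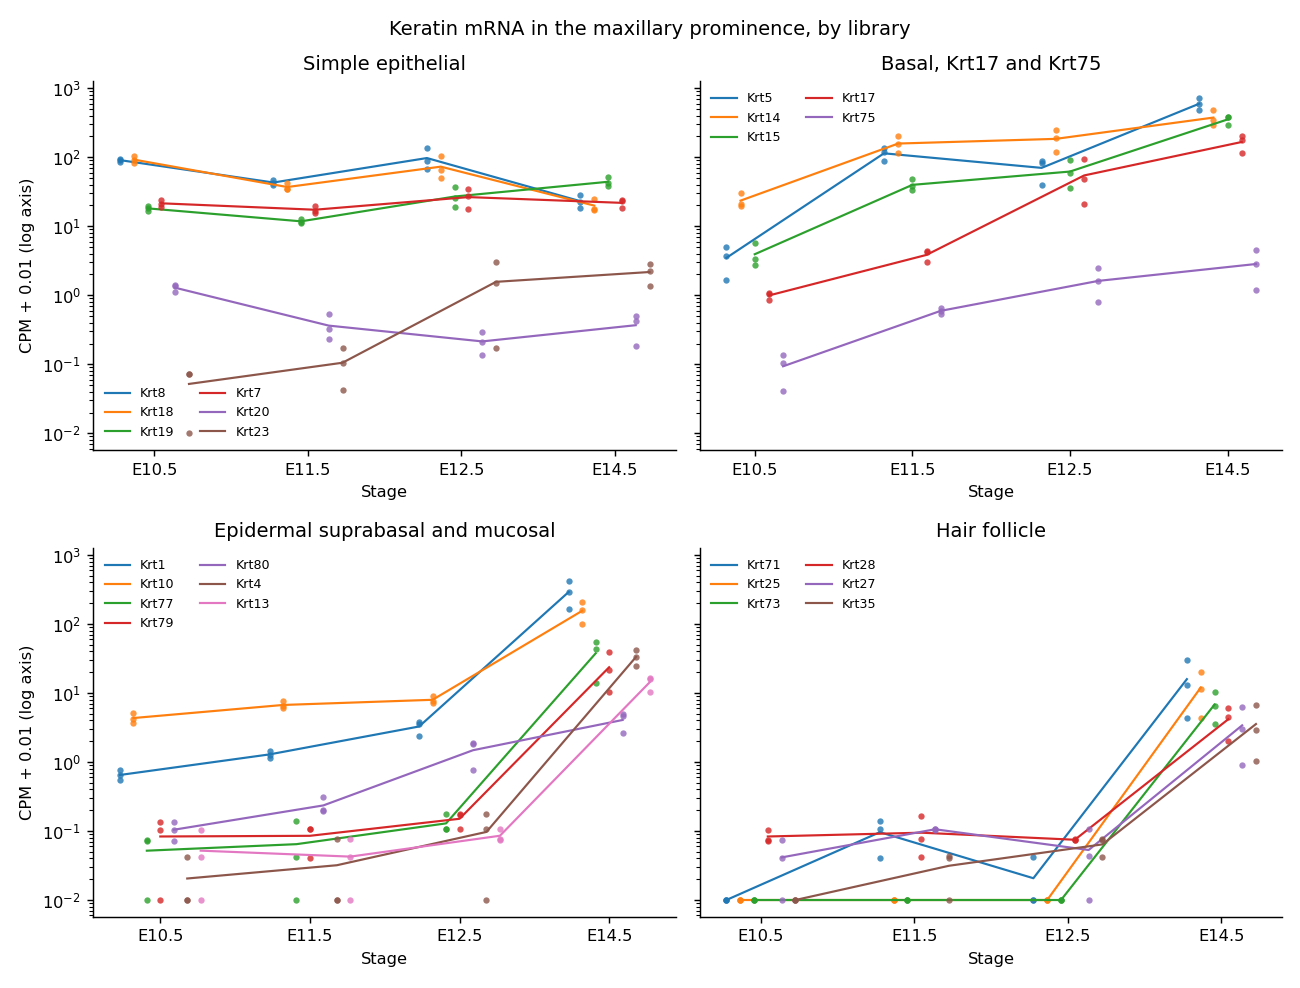
Level of 24 keratins in each library (points) with the mean of the 3 libraries of a stage (lines), on a log axis of CPM + 0.01. Krt8 and Krt18 were lowest at E14.5, where most other lines are highest, and the 6 genes of the hair follicle panel (Krt25, Krt27, Krt28, Krt35, Krt71 and Krt73) lay below 0.16 CPM in every library until E12.5.

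Libraries held 28294837 to 33941430 counts in genes. Alignments outside annotated genes made up 1.92% to 4.88% of the E10.5 libraries, 2.16% to 2.42% of those of E11.5, 5.03% to 5.43% of those of E12.5 and 5.78% to 6.21% of those of E14.5. This share overlapped between E10.5 and E11.5 and between no other stages. The 15 general epithelial genes of the marker list, such as Epcam and Cdh1, were detected at every stage. Their summed level was 454 to 605 CPM in the first stage's libraries, 463 to 567 CPM in the second's, 572 to 1024 CPM in the third's and 513 to 618 CPM in the last's. None of the 8 neural crest mesenchyme markers was at 0 at any stage. At E14.5, 3 of them were higher and 4 lower than at E10.5 (median log2 fold change -0.34). Over all genes tested 36.6% were higher and 33.8% lower (median 0.06), so the 3 are near the background.

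The keratins lie in 2 clusters, on chromosome 11 (GRCm38/mm10, chr11:99232761-100269871) with 25 type I genes and on chromosome 15 (chr15:101347444-102032027) with 24 type II genes and Krt18. Krt18, on the plus strand at chr15:102028180-102032027, is the 1 type I gene of the chromosome 15 cluster and lies 23.7 kb from its partner Krt8, on the minus strand at chr15:101996698-102004482. On chromosome 11 the run Krt25, Krt26, Krt27 and Krt28 is followed by Krt10 after 10.3 kb, and Krt15 and Krt19 are 4.9 kb apart. On chromosome 15 Krt71, Krt74, Krt72 and Krt73 lie in a row beside Krt5, with 21.1 kb between Krt5 and Krt71. Krt74 is annotated as a transcribed unitary pseudogene and the other members as protein coding.

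**Figure D2:**
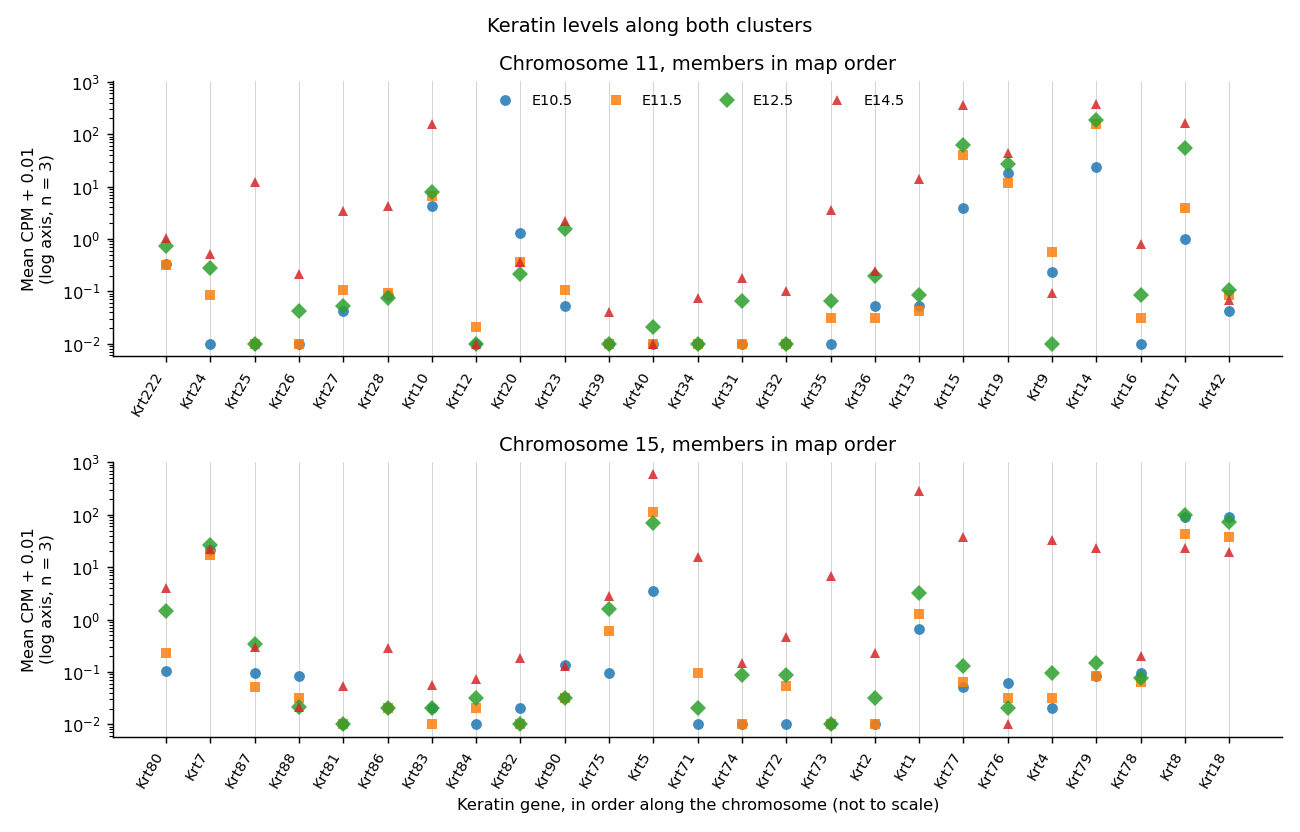
Mean level of each keratin (CPM + 0.01, log axis, n = 3) at the 4 stages, in the order of the genes along chromosomes 11 and 15; spacing is not to scale. E14.5 (triangles) is the highest symbol for 38 of the 50 genes; levels are not divided by gene length, so heights compare stages within a gene, not genes.

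Promoter windows, from 250 bases before to 50 bases after the RefSeq start (GRCm38.p6), were found for 35 of the 50 keratins. The stretches below run from 60 bases before the start to 20 bases from it, on the strand of the gene. They are shown for the simple pair, for Krt5 and Krt10, and for 3 inner root sheath keratins without or almost without counts before E14.5. Capitals mark the letters TATAAA.
Krt8 (chr15:102004323-102004402, minus strand): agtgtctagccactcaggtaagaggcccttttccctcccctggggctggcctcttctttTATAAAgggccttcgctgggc
Krt18 (chr15:102028156-102028235, plus strand): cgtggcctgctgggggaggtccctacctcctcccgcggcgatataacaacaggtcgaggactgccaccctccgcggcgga
Krt5 (chr15:101712886-101712965, minus strand): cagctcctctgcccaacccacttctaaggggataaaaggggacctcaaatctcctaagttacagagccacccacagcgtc
Krt10 (chr11:99389345-99389424, minus strand): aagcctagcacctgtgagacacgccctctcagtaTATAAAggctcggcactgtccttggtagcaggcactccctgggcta
Krt25 (chr11:99322932-99323011, minus strand): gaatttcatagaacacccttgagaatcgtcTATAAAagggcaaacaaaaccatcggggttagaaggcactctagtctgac
Krt71 (chr15:101743078-101743157, minus strand): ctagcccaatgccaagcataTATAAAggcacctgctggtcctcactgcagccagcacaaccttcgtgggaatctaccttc
Krt73 (chr15:101802341-101802420, minus strand): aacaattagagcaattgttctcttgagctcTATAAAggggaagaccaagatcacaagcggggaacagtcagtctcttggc

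On the strand of the gene, TATAAA began 26 bases before the start in Krt10, 30 in Krt25 and Krt73 and 40 in Krt71. In Krt8 it began 1 base before the RefSeq start, and these letters were not in the stretches of Krt18 and Krt5. Over all keratins with a promoter, 13 of 35 (37.1%) had TATAAA on the gene's strand with its first base 40 to 20 bases before the start, against 2.4% of the 27025 genes in the table. Among them were 5 of the 7 inner root sheath keratins with a promoter (Krt25, Krt26, Krt28, Krt71 and Krt73) and 4 of 8 hair shaft keratins, and 0 of 2 basal keratins. The basal keratins with a window were Krt5 and Krt14. The Krt14 window (chr11:100205981-100206280, minus strand) lies within the gene as annotated in GENCODE M21 (chr11:100203162-100207548). It therefore does not cover the bases before that annotated start. Searched on both strands of the whole window, TATAAA was in 51.4% of keratin promoters and 15.7% of all promoters. The letters GGGCGG were in 5.7% of keratin promoters and 38.2% of all. CCAAT was in 14 of 35 keratin promoters and 41.1% of all, and GCCNNNGGC, a form of the Tfap2 motif, in 7 of 35 and 18.5%; all were searched on both strands. A match of letters is a description of the window and does not show a site in use.

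The make-up of the keratin total changed at every stage. Levels of different genes were compared as CPM per kilobase of exon. At E10.5 the simple epithelial keratins (Krt7, Krt8, Krt18, Krt19, Krt20 and Krt23) held 82.3%, 86.3% and 88.7% of the total in the 3 libraries and the basal keratins (Krt5, Krt14 and Krt15) 15.1%, 11.1% and 9.28%. At E11.5 the order was turned round, with 24.2%, 20.1% and 32.4% for the simple and 72.8%, 77.0% and 64.5% for the basal keratins. At E12.5 the simple keratins held 39.3%, 36.0% and 33.8% and the basal keratins 51.6%, 49.6% and 54.5%. At E14.5 the simple keratins were down to 6.06%, 3.88% and 5.93%, and the basal keratins held 69.7%, 64.8% and 62.0%. The libraries of different stages did not overlap in the simple share. In bulk tissue such as this, fewer cells of a type and less RNA per cell cannot be told apart.

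The smaller classes joined at different stages. Krt16, Krt17 and Krt75, keratins of skin appendages and stressed epidermis, went from 0.379% to 0.515% of the total at E10.5 to between 1.10% and 1.28% a day later, between 6.73% and 13.0% at E12.5 and between 9.44% and 10.8% at E14.5. The epidermal suprabasal keratins stayed at 1.18% to 1.98% until E12.5 and held 11.5%, 17.3% and 14.8% at E14.5. The mucosal keratins held 1.93% to 2.67% and the inner root sheath keratins 0.981%, 1.55% and 3.38% at E14.5, while each of these 2 classes was at 0.1003% or less in every earlier library. Type I exceeded type II keratins per kilobase in all 12 libraries, by 1.73 to 1.95 times in the E10.5 libraries, 1.87 to 2.10 times in the E11.5, 2.68 to 2.98 times in the E12.5 and 1.59 to 1.70 times in the E14.5 libraries.

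**Figure D3:**
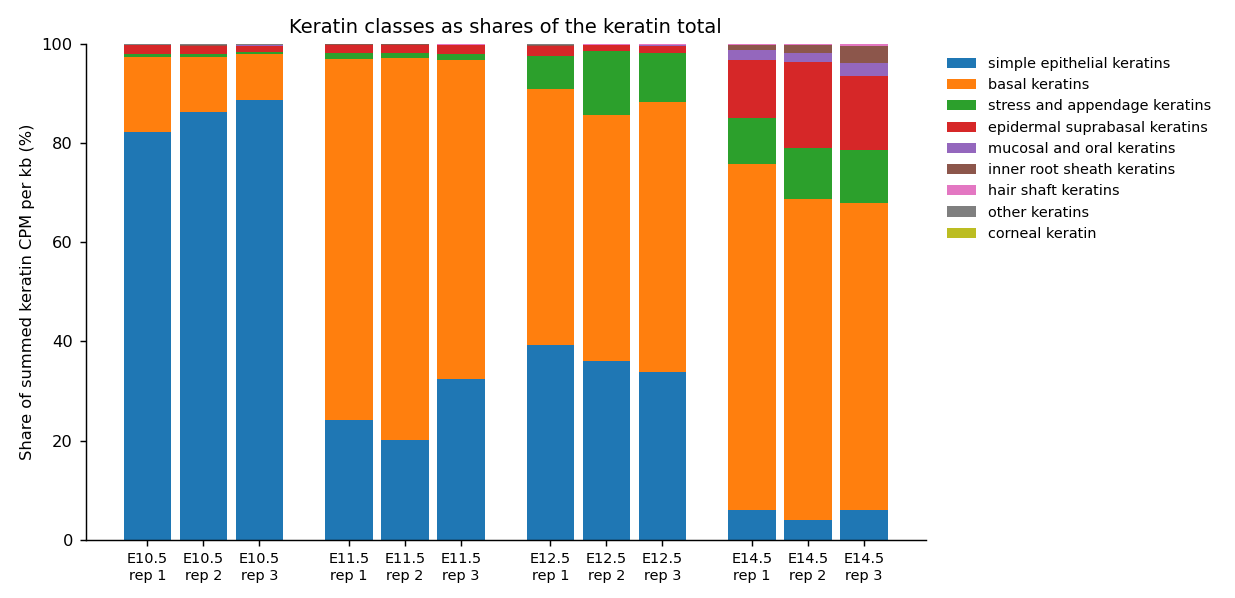
Share of each keratin class in the summed keratin CPM per kilobase of exon, as 1 stacked bar per library. Simple epithelial keratins held 82.3% to 88.7% at E10.5 and 3.88% to 6.06% at E14.5, and the basal keratins were the largest class in all 9 libraries from E11.5 on.

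From E10.5 to E11.5, 6 of the 29 tested keratins rose (Krt5, Krt14, Krt15, Krt17, Krt24 and Krt75) and 4 fell (Krt8, Krt18, Krt19 and Krt20). Over all genes tested, 12.2% rose and 12.9% fell, 25.1% in all. From E11.5 to E12.5, 9 keratins rose (Krt1, Krt8, Krt17, Krt18, Krt19, Krt23, Krt24, Krt80 and Krt87) and 2 fell (Krt5 and Krt9), against 27.1% and 22.2% of all genes, 49.3% in all. From E12.5 to E14.5, 20 rose and 2 fell (Krt8 and Krt18), against 23.0% and 24.0% of all genes, 47.1% in all. Among the 15 keratins with at least 10 counts in 3 or more libraries before E14.5, 9 rose and 2 fell at that step. Of the same 15, 5 rose and 4 fell at E11.5, and 6 rose and 2 fell at E12.5. Krt23, Krt24 and Krt87, named above as rising, are not among the 15. Between E10.5 and E14.5, 23 were higher and 3 lower at the later stage, against 36.6% and 33.8%, 70.4% in all. Of the 15 with earlier counts, 10 were higher and 3 lower. Some difference among the 4 stages was found for 28 of the 29, all but Krt7, and for 81.6% of all genes. Krt7 is 1 of the 15 with earlier counts. Several of the other 14 had entered the test through their E14.5 level, so a difference was fixed in advance for them. The median log2 fold change of the 15 with earlier counts, with genes at 0 set to their bounds, was 0.96, 0.77 and 0.96 at the 3 steps, beside -0.04, 0.06 and -0.01 over all genes.

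The call at E12.5 against E11.5 depends on the share of alignments outside genes. With that share in the fit, 2 keratins passed as higher (Krt77 and Krt79, which are near 0 at both stages) and 0 as lower, and the calls over all genes dropped to 3.8%. Krt1, Krt8, Krt17, Krt18, Krt19, Krt23 and Krt80 then no longer passed (edgeR adjusted p 0.145 to 0.611). As the share did not overlap between these stages, it and the stage cannot be told apart. For E14.5 against E12.5 and against E10.5 the share did not overlap either, so it and the stage cannot be told apart there. With the share in the fit, 18 keratins were higher and 2 lower at E14.5 than at E12.5. The calls over all genes were then 42.3% against E12.5 and 40.8% against E10.5.

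**Figure D4:**
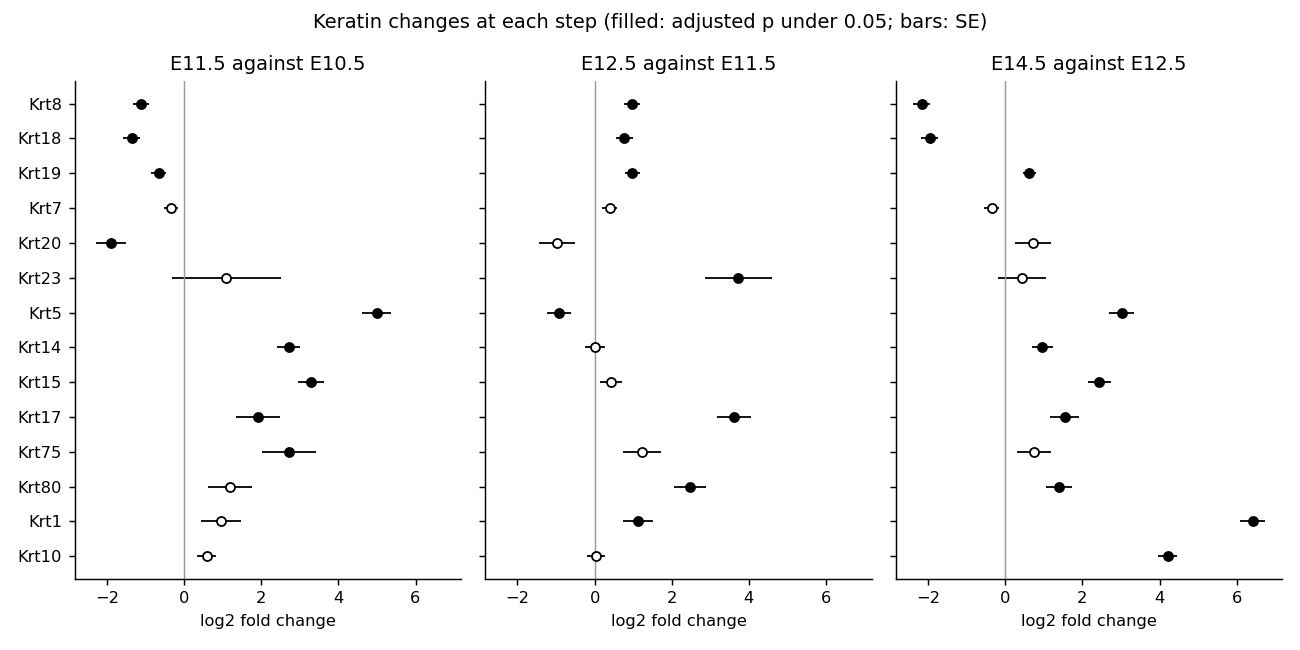
Log2 fold change of 14 keratins (points, edgeR fit; bars, SE) at each step, filled where the adjusted p was under 0.05. Krt8, Krt18 and Krt19 fell, then rose, and parted at the last step, where Krt19 rose and the other 2 fell; the Krt5 fall at the middle step turned to 0.39 with the share outside genes in the fit.

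The simple pair Krt8 and Krt18 fell, rose and fell again. Krt8 stood at 95.8, 84.6 and 92.0 CPM at E10.5, 42.2, 39.4 and 47.3 CPM at E11.5, 66.8, 137 and 88.3 CPM at E12.5 and 22.6, 18.3 and 28.3 CPM at E14.5. The libraries of consecutive stages did not overlap. The log2 fold change was -1.11 ± 0.21 (SE) at the first step (edgeR adjusted p = 0.00162), 0.96 ± 0.21 at the second (adjusted p = 0.00211) and -2.16 ± 0.22 at the third (adjusted p = 5.57e-06). Krt18 was at 90.0, 82.3 and 105 CPM, then 34.3, 34.8 and 41.9 CPM, then 49.4, 105 and 65.0 CPM, and last 17.5, 17.6 and 24.6 CPM. Its 3 steps were -1.35 ± 0.22, 0.77 ± 0.22 and -1.95 ± 0.22 on the log2 scale (edgeR adjusted p = 0.000559, 0.0103 and 1.73e-05), again without overlap. With the share outside genes in the fit, the E12.5 step was 0.89 for Krt8 (edgeR adjusted p = 0.245) and 0.46 for Krt18 (adjusted p = 0.572). Over the whole course Krt8 was 4.94-fold and Krt18 5.79-fold lower at E14.5 than at E10.5. Per kilobase, the ratio of Krt8 to Krt18 was 0.644 to 0.781 in the E10.5 libraries, 0.829 to 0.904 in the E11.5, 0.959 to 0.998 in the E12.5 and 0.763 to 0.948 in the E14.5 libraries. Of the Krt8 transcript, 17.1% of 100-base windows also occur in Krt8-ps or Gm36026, and no source used here says how such reads were counted.

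Relative to the general epithelial genes, the E11.5 and E12.5 libraries of Krt18 overlapped (61.4, 75.1 and 73.8 CPM against 86.3, 102 and 74.9 CPM), and Krt8 stood lower at E12.5 than at E10.5. Per 1000 CPM of those 15 genes, Krt8 was at 170 ± 17.1, 81.4 ± 5.10, 117 ± 15.8 and 40.1 ± 9.18 CPM at the 4 stages (SD, n = 3). Krt18 was at 172 ± 10.4, 70.1 ± 7.6, 87.8 ± 13.7 and 34.4 ± 6.14 CPM on the same scale. Of the list's 15 genes 4 rose into E12.5, near the 27.1% of all genes, and after it 1 rose and 8 fell, against 23.0% and 24.0% of all genes, among them the tight junction genes Cldn6 (log2 fold change -2.39 ± 0.16) and Cldn7 (-2.33 ± 0.25).

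Krt19, a small type I keratin of simple and oral epithelia, parted from that pair at the last step. Its levels were 16.4, 18.5 and 19.6 CPM at E10.5, 11.04, 11.6 and 12.7 CPM at E11.5, 19.0, 36.5 and 25.3 CPM at E12.5 and 38.1, 41.9 and 52.2 CPM at E14.5. The E14.5 libraries were above those of every other stage. The steps were -0.66 ± 0.19, 0.98 ± 0.19 and 0.63 ± 0.18 on the log2 scale (edgeR adjusted p = 0.0235, 0.00117 and 0.0127). The fall at E11.5 no longer passed without E10.5 replicate 2 or 3 or E11.5 replicate 1 or 2 (adjusted p 0.0544 to 0.0836), and the last rise not without E12.5 replicate 1 (0.0518) or E14.5 replicate 3 (0.0521). Krt7, a type II keratin of ducts and simple epithelia, was at 19.1, 21.2 and 24.2 CPM, then 19.8, 16.6 and 15.6 CPM, then 17.5, 34.5 and 27.3 CPM, and last 18.2, 24.1 and 23.1 CPM. Its stages overlapped, and no step passed the test (edgeR adjusted p 0.108 to 0.223). Without E12.5 replicate 1 its rise into E12.5 (0.58, adjusted p = 0.00905) and fall after it (-0.57, adjusted p = 0.0103) passed. Krt20, known from intestine, urothelium and Merkel cells, was at 1.34, 1.10 and 1.38 CPM at E10.5 and at 0.526, 0.223 and 0.312 CPM at E11.5, a fall of -1.88 ± 0.39 (edgeR adjusted p = 0.00363), and stayed at or below 0.526 CPM afterwards. Krt23 went the other way, from at most 0.160 CPM in the libraries before E12.5 to 0.160, 1.51 and 3.00 CPM at E12.5 (3.72 ± 0.87, edgeR adjusted p = 0.00356) and 1.35, 2.86 and 2.27 CPM at E14.5. E12.5 replicate 1 lay at the level of the earlier stages, and the Krt23 rise missed the threshold in limma-voom (adjusted p = 0.0572).

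The basal keratins rose together at E11.5 and again at E14.5. Krt5 was at 5.07, 3.68 and 1.66 CPM at E10.5, 117, 137 and 87.7 CPM at E11.5, 39.9, 88.6 and 81.7 CPM at E12.5 and 481, 725.5 and 581 CPM at E14.5. It rose 31.8-fold at E11.5 (log2 fold change 4.99 ± 0.38, edgeR adjusted p = 1.32e-06) and 8.13-fold from E12.5 to E14.5 (3.02 ± 0.32, adjusted p = 9.69e-06). Between those rises it fell by 1.90-fold at E12.5 (-0.92 ± 0.30, adjusted p = 0.0232), where the libraries of both stages overlapped. That fall no longer passed without E11.5 replicate 1 (adjusted p = 0.0581), E11.5 replicate 2 (0.0851) or E12.5 replicate 1 (0.0654), and it turned to 0.39 (adjusted p = 0.81) with the share outside genes in the fit. Per 1000 CPM of general epithelial genes Krt5 was at 210, 295 and 155 CPM at E11.5 and 69.7, 86.5 and 94.2 CPM at E12.5, without overlap. In the Krt5 transcript, 3.81% of 100-base windows also occur in Krt6a or neighbouring gene models.

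Krt14, the type I partner of Krt5, started higher and rose less. Its levels were 30.3, 19.4 and 20.8 CPM at E10.5, 156, 202 and 116 CPM at E11.5, 121, 245 and 187 CPM at E12.5 and 293, 486.5 and 347 CPM at E14.5. The rise at E11.5 was 6.55-fold (2.71 ± 0.29, edgeR adjusted p = 1.99e-05) and that at E14.5 was 1.94-fold (0.96 ± 0.27, adjusted p = 0.01). Without E14.5 replicate 2 the second was 0.70 (adjusted p = 0.0538). At E12.5 its libraries overlapped with those of E11.5 (0.01 ± 0.27, adjusted p = 0.981). Krt15, another type I keratin of the basal layer, went from 5.72, 3.34 and 2.699 CPM at E10.5 to 38.5, 47.6 and 33.2 CPM at E11.5, 35.5, 91.5 and 58.9 CPM at E12.5 and 292, 387 and 379 CPM at E14.5. It rose 9.87-fold at E11.5 (edgeR adjusted p = 1.58e-05) and 5.41-fold at E14.5 (adjusted p = 2.55e-05). Its step between them was 0.43 ± 0.29 (edgeR adjusted p = 0.231), and 0.66 (adjusted p = 0.0439) without E12.5 replicate 1.

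The pair was far from balanced at the start. Per kilobase, the ratio of Krt5 to Krt14 was 0.134, 0.152 and 0.0641 at E10.5, 0.602, 0.543 and 0.605 at E11.5, 0.264, 0.289 and 0.349 at E12.5 and 1.31, 1.19 and 1.34 at E14.5. No 2 stages overlapped, and Krt5 exceeded Krt14 at E14.5 alone. Krt14 was the most abundant keratin per kilobase at E11.5 (89.8 ± 24.4) and E12.5 (105 ± 35.4 CPM per kilobase, SD, n = 3), Krt18 at E10.5 (64.3 ± 8.02) and Krt5 at E14.5 (271 ± 56.0). At E14.5 Krt14 (214 ± 56.9) and Krt15 (200 ± 29.9 CPM per kilobase) followed Krt5, and the ranges of Krt5 and Krt14, and of Krt14 and Krt15, overlapped between libraries, although Krt5 was the higher of the first pair within each library.

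Krt17, expressed in periderm and the placodes of hair and other appendages, rose at every step. It was at 1.06, 1.04 and 0.848 CPM at E10.5, 4.21, 4.31 and 2.99 CPM at E11.5, 21.2, 93.0 and 49.1 CPM at E12.5 and 115, 204.5 and 180 CPM at E14.5. No consecutive stages overlapped. The steps were 1.92 ± 0.58, 3.61 ± 0.44 and 1.54 ± 0.37 on the log2 scale (edgeR adjusted p = 0.0278, 4.56e-05 and 0.00408). The first was lost in limma-voom (adjusted p = 0.228), with the share outside genes in the fit (0.0707), and without any 1 of the E10.5 libraries or E11.5 replicates 1 and 2 (0.0569 to 0.0965), and the second with that share in the fit (0.145). Krt75, a type II keratin of the hair follicle's companion layer, was at 0.125, 0.0315 and 0.0942 CPM, then 0.526, 0.574 and 0.654 CPM, then 0.799, 2.44 and 1.58 CPM, and last 1.18, 2.79 and 4.51 CPM. It rose at E11.5 (2.72 ± 0.70, edgeR adjusted p = 0.0116; 0.0726 in limma-voom), and the later steps did not pass. The second (1.23 ± 0.49, edgeR adjusted p = 0.0513) passed in DESeq2 (0.0479) and without E12.5 replicate 1 (0.0201), E14.5 replicate 1 (0.0258) or E14.5 replicate 3 (0.0416), and the third without E14.5 replicate 1 (1.13, 0.0414). Krt16, induced in stressed and growing epidermis, had 0 counts at E10.5 and 73 at E14.5, at least 25.6-fold higher, and reached 0.566 to 1.18 CPM. In its transcript, 24.3% of 100-base windows also occur in Gm11597 or Krt14.

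The suprabasal pair Krt1 and Krt10 rose between E12.5 and E14.5. Krt1 was at 0.750, 0.630 and 0.534 CPM at E10.5, 1.25, 1.15 and 1.43 CPM at E11.5, 2.40, 3.78 and 3.59 CPM at E12.5 and 162, 421 and 289 CPM at E14.5. The last step was 85.1-fold (6.41 ± 0.32, edgeR adjusted p = 2.33e-08). No stages overlapped, and the rise into E12.5 (1.13 ± 0.39, adjusted p = 0.0294) was lost in limma-voom (0.185), with the share outside genes in the fit (0.211) and without any 1 of E11.5 replicates 1, 2 and 3 and E12.5 replicates 2 and 3 (0.0538 to 0.0988). The Krt1 step into E11.5 (0.96 ± 0.51, edgeR adjusted p = 0.194) did not pass. It passed with only the 2 stages compared (0.0244), without E14.5 replicate 1 (0.0318) and with no filter (0.000143). Krt10 started higher, at 5.10, 4.19 and 3.67 CPM at E10.5, 5.98, 7.72 and 6.36 CPM at E11.5 and 7.16, 9.07 and 7.62 CPM at E12.5, and was at 99.0, 205 and 161 CPM at E14.5. It rose 18.5-fold at that step (4.21 ± 0.24, edgeR adjusted p = 7.11e-08) and passed at no earlier one. Its step into E11.5 (0.59 ± 0.25, edgeR adjusted p = 0.107) passed in DESeq2 (0.0478) and without E14.5 replicate 1 (0.0218). That step also passed with only the 2 stages compared (0.0341) and with no filter (5.73e-05). Of the Krt10 exon bases, 6.91% lie under Gm11940. Per kilobase, the ratio of Krt1 to Krt10 was 0.0696 to 0.0720 in the E10.5 libraries, 0.0712 to 0.108 in the E11.5 and 0.160 to 0.226 in the E12.5 libraries. At E14.5 it was 0.784, 0.983 and 0.860.

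The other suprabasal keratins followed 3 courses. Krt77 and Krt79, type II keratins of differentiating epidermis and the follicle opening, were at or below 0.165 CPM in every library before E14.5. They entered the test only through their E14.5 level, so they had to differ at that step. At E14.5 Krt77 was at 14.1, 55.4 and 43.0 CPM (8.19 ± 0.62, edgeR adjusted p = 5.15e-07) and Krt79 at 10.4, 38.8 and 21.4 CPM (7.28 ± 0.58, adjusted p = 7.48e-07). Krt80 rose in smaller steps, from 0.187 to 0.296 CPM at E11.5 to 0.767, 1.80 and 1.85 CPM at E12.5 (2.47 ± 0.41, edgeR adjusted p = 0.000425) and 2.60, 4.56 and 4.98 CPM at E14.5 (1.40 ± 0.33, adjusted p = 0.00371). Krt9, the keratin of palms and soles, had 53 counts at E11.5 and 0 at E12.5, at least 17.5-fold lower (edgeR adjusted p = 0.000425), and 7 counts at E14.5, where its libraries overlapped with those at 0 (edgeR adjusted p = 0.0475). Krt2, of the upper epidermis, and Krt78 were not tested and had 21 and 17 counts at E14.5.

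The mucosal pair Krt4 and Krt13 appeared at E14.5. Each passed the filter only through that stage, so the outcome of its test against E12.5 was fixed in advance. Krt4 stood at or below 0.165 CPM in the 9 earlier libraries and at 24.3, 33.4 and 42.3 CPM at E14.5, a log2 fold change of 8.45 ± 0.46 against E12.5 (edgeR adjusted p = 3.87e-08). Krt13 stood at or below 0.0961 CPM and then at 10.3, 15.7 and 16.6 CPM (7.40 ± 0.44, edgeR adjusted p = 8.46e-08). Per kilobase, Krt4 exceeded Krt13 by 2.00, 1.82 and 2.18 times in the E14.5 libraries. Krt24 had 0 counts at E10.5, 7 at E11.5 and 46 at E14.5, at least 16.1-fold higher than at E10.5, and stayed below 1 CPM. Krt76, a keratin of the hard palate and gingiva, had 5 counts at E10.5 and 0 at E14.5.

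Inner root sheath keratins were counted almost solely at E14.5. The 5 that were tested passed the filter only through their E14.5 level. A difference at this step was thus fixed in advance, and the adjusted p-values add no support to the counts. Krt25 had 0 counts over the 9 earlier libraries and 1130 at E14.5, where it was at 4.34, 11.2 and 20.2 CPM, at least 384-fold above E12.5 (edgeR adjusted p = 0.000168). Krt73 likewise had 0 counts before E14.5 and 635 there, at 3.54, 6.47 and 10.3 CPM, at least 216-fold higher (edgeR adjusted p = 7.3e-05). Krt71, a type II keratin of the same sheath, had 0, 8 and 1 counts at the first 3 stages and 1516 at E14.5, at 4.34, 13.1 and 30.1 CPM. Its ratio to E12.5 was 1546, with a 95% exact interval of 277 to 61090 that covers counting error only (edgeR adjusted p = 1.7e-05). Krt28 was at 0.0319 to 0.156 CPM in the earlier libraries and at 1.98, 4.45 and 6.04 CPM at E14.5 (5.84 ± 0.53, edgeR adjusted p = 2.51e-06). Krt27 was at or below 0.0986 CPM and then at 0.902, 2.97 and 6.28 CPM (6.09 ± 0.83, edgeR adjusted p = 6.77e-05). Per kilobase, the ratio of Krt71 to Krt25 was 0.910, 1.06 and 1.35. The other 3 keratins of that class were not tested and had 20, 41 and 12 counts at E14.5.

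Of the 13 hair shaft keratins 2 were tested. Krt35, one of the first keratins of the forming shaft, had 0 counts at E10.5 and 338 at E14.5, at 1.006, 2.93 and 6.66 CPM. That was at least 118-fold above E10.5, and 5.85 ± 0.78 on the log2 scale above E12.5 (edgeR adjusted p = 0.000119). Krt35 too had passed the filter only through E14.5, so it had to differ there. Krt87 rose from at most 0.0638 CPM at E11.5 to 0.224 to 0.396 CPM at E12.5 (2.66 ± 0.77, edgeR adjusted p = 0.0123) and was at 0.212 to 0.354 CPM at E14.5. It had 8, 4, 31 and 27 counts at the 4 stages and passed the filter only through libraries of E12.5 and E14.5. Its adjusted p thus adds no support to the counts. Krt87 shares 10.97% of 100-base windows with other gene models. The other 11 hair shaft keratins did not exceed 0.442 CPM in any library, such as Krt86 (26 counts at E14.5, 24.6% of windows shared) and Krt36. Outside these classes, Krt222, a keratin-like gene at the end of the type I cluster, was at 0.798, 0.813 and 1.47 CPM at E14.5 and higher than at E10.5 (1.35 ± 0.38, edgeR adjusted p = 0.00651; 0.517 with the share outside genes in the fit). The other 3 keratins without a class were at or below 0.188 CPM, and the corneal keratin Krt12 had 1 count in all.

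The E14.5 libraries differed in the mix of keratins. Replicate 1 was the lowest for 23 of the 25 keratins with a stage mean of 1 CPM or more. Replicate 3 was the highest for 14, including all 5 inner root sheath keratins among them, Krt35, Krt4 and Krt13, and replicate 2 for 10, including all 3 basal keratins and 4 of 5 suprabasal keratins. The highest library exceeded the lowest by 1.33 to 1.66 times for the basal keratins, 1.91 to 3.93 times for the suprabasal and 2.91 to 6.96 times for the inner root sheath keratins. Tchh, the trichohyalin of the inner root sheath, was at 11.8, 14.8 and 33.7 CPM in replicates 1, 2 and 3, and the hair follicle factors Hoxc13 and Foxn1 at 1.42, 1.84 and 2.65 CPM and 1.25, 2.23 and 1.62 CPM. The general epithelial genes summed to 513, 618 and 604 CPM. Their part in the spread was not tested.

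**Figure D5:**
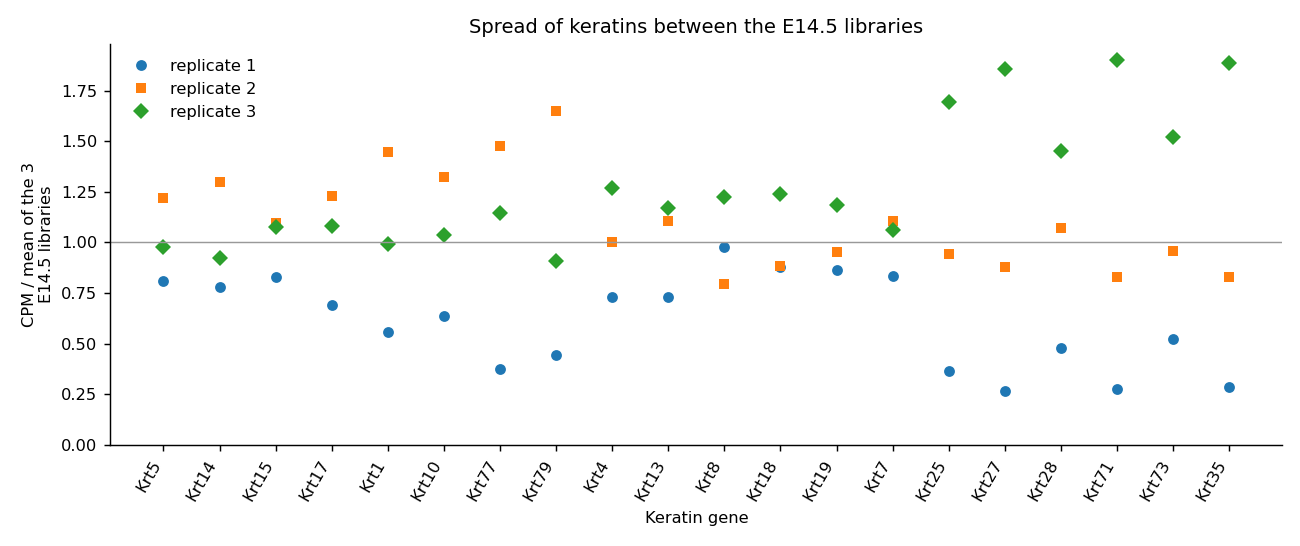
Level of 20 keratins in each E14.5 library, divided by the mean of the 3 libraries of that gene (line at 1). Replicate 3 (diamonds) is highest for the inner root sheath keratins and Krt35, and replicate 2 (squares) for the basal and most suprabasal keratins.

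At E12.5 replicate 1 was the lowest library for 21 of the 23 such keratins with counts at that stage, and replicate 2 the highest for 15. The general epithelial genes showed the same order, with 572, 1024 and 867 CPM. Markers of other tissues also changed into E12.5, where 27.1% of all genes rose and 22.2% fell. Of the 9 tested brain, eye and olfactory genes 7 rose and 1 fell into E12.5, and the list of 10 summed to 37.6, 124 and 104 CPM in the E12.5 libraries against 25.7 to 51.6 CPM at E11.5, with none at 0 at E12.5. Of the 6 tested foregut endoderm and notochord genes 5 rose, and the list of 8 summed to 117 to 163 CPM against 22.5 to 33.6 CPM, with Noto at 0. Most of that E12.5 sum was Pax9, at 83.8, 90.1 and 121 CPM. Of the 4 tested yolk sac and trophoblast genes 3 rose (Afp, Apoa1 and Elf5). The list of 8 summed to 20.4 to 43.2 CPM against 3.22 to 4.42 CPM, with Prl3d1 at 0. Afp was at 28.23, 1.218 and 0.4286 CPM in E12.5 replicates 1, 2 and 3, and Apoa1 at 4.024, 0.8332 and 0.4286 CPM. Elf5 was at 7.186, 34.03 and 19.12 CPM. Most of the sum was thus Afp in replicate 1 and Elf5 in replicates 2 and 3. The 7 neuron genes summed to 82.9, 313 and 203 CPM against 113 to 199 CPM, and 3 rose. All 6 skeletal muscle genes and all 5 endothelial genes rose as well, to sums of 144.7 to 304 CPM and 238 to 353 CPM. From E12.5 to E14.5 the 6 muscle genes rose again, to 1531 to 1904 CPM, as did all 5 leukocyte genes, from 38.0 to 40.9 CPM to 143 to 181 CPM. Over all genes 23.0% rose and 24.0% fell at that step. Whether each list stands for a tissue in the samples was not tested. The part of any such tissue in the keratin levels of E12.5 and E14.5 was not tested either.

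Regulators known to act on keratin genes and the partners of the filaments moved as well. Of 22 regulators 10 rose and 0 fell at E11.5, against 12.2% and 12.9% of all genes. Among these 10, the largest fitted change was in Hoxc13, a hair follicle factor (35 counts against 2, a ratio of 17.8 with a 95% exact interval of 4.58 to 153). Klf4, a factor of epidermal differentiation (2.91 ± 0.19), Lef1, which acts in Wnt signalling (2.48 ± 0.13), and Zfp750 (2.05 ± 0.26) followed. At E12.5, 5 rose and 8 fell, against 27.1% and 22.2% of all genes, so the 5 are near the background. Ehf, an Ets factor of epithelia, rose most (6.08 ± 0.68), from 0.0935 to 0.383 CPM to 4.09, 27.7 and 19.6 CPM, and Lef1 fell most (-3.93 ± 0.14). At E14.5, 13 rose and 2 fell, against 23.0% and 24.0%, led by Hoxc13 (4.07 ± 0.53), Foxn1, required for hair shaft keratins (3.29 ± 0.42), Cebpb (2.85 ± 0.39) and Grhl1 (2.44 ± 0.37). Hoxc13 (2, 35 and 10 counts at the earlier stages) and Foxn1 (21, 22 and 15) passed the filter only through E14.5. They had to differ at that step, so their calls add no support to the 13. The median log2 fold change of the 22 was 0.48, -0.05 and 0.62 at the 3 steps, beside -0.04, 0.06 and -0.01 over all genes. Mesenchyme is known to express several of these genes too, Lef1 and Msx2 among them.

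Of the 17 tested genes of desmosomes, filament anchors and the cornified envelope, 10 rose and 0 fell at E11.5, 6 rose and 1 fell at E12.5, and 17 rose at E14.5. Over all genes 12.2%, 27.1% and 23.0% rose at these steps. Among the 17, Krtdap, Tgm3 and Sprr1a passed the filter only through their E14.5 level. Their rise at E14.5 was thus fixed in advance and adds no support to the count of 17. The median log2 fold change of the list was 0.92, 0.48 and 1.44, beside -0.04, 0.06 and -0.01. Pkp1, a desmosomal plaque protein that binds keratin, rose at E11.5 from 0.188 to 0.782 CPM to 8.10 to 10.4 CPM (4.40 ± 0.37) and again at E14.5 to 96.6 to 135 CPM (2.97 ± 0.25). Krtdap, a protein of differentiating keratinocytes, went from 0.0958 to 0.288 CPM at E12.5 to 20.2, 33.9 and 29.7 CPM at E14.5 (7.23 ± 0.37). Tgm3, a crosslinking enzyme of hair and envelope, rose by 4.84 ± 0.37 and Tchh by 3.53 ± 0.41. Among the envelope genes at E14.5, Flg had 3 counts and Ivl 31, while Lor (340 counts, 1.44 ± 0.39, edgeR adjusted p = 0.00809) and Sprr1a (222 counts, 2.63 ± 0.60, adjusted p = 0.00294) were among those that rose. Of the 6 periderm markers 4 rose at E11.5 and 3 at E14.5. At E12.5, 2 rose and 2 fell, near the 27.1% and 22.2% of all genes.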

How the data were processed

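Per the labels' protocols, libraries were made from poly-T selected RNA with NEBNext Ultra reagents, a kit without strand marking. FastQC, STAR 2.7.3a, HTSeq 0.12.4 and mm10 are named in the submitters' processing notes, without role or order; no source used here gives the annotation release or the strand setting. The deposited values are whole-number counts per gene made by the authors. Symbols and exon lengths came from GENCODE M21, which held 53706 of 53801 identifiers. Closing entries (14.3% to 18.6% of alignments) stayed out of library sizes. CPM was computed per library total, and reads carry no molecular identifiers. No pair of libraries of a stage agreed within sampling noise (chi-square per degree of freedom at least 4.69).

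Counts were fitted in R 4.3.3 with edgeR 4.0.16 (filterByExpr, minimum count 10; TMM; glmQLFit with 1 mean per stage over 12 libraries, 8 residual degrees of freedom; Benjamini-Hochberg over 18365 genes, threshold 0.05). Fold changes come from that fit, so they differ slightly from CPM ratios. The fit was tested on simulated data. A fold against a stage without counts uses a floor of 3 counts over the stage; with 1 to 3 counts the ratio has a 95% exact interval, and both cover counting error only. Keratins with a stage mean of at least 1 CPM are given by library, the others by class; from each list of regulators, partners and epithelial genes up to 4 called genes with the largest change were named, beside Epcam and Cdh1, Flg, Ivl, Lor and Sprr1a, and Tchh, Hoxc13 and Foxn1 by library, which were chosen after their values were seen. The members, classes and gene lists were chosen with earlier results of these data known. Alternatives were DESeq2 1.42.0 and its size factors, limma-voom (limma 3.58.1), no filter, only the stages compared, a replicate block, the share outside genes as a term of the fit, and each library left out.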

Additional observations from a re-analysis of the deposited data

How the results depend on the processing

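With DESeq2's size factors all 100 results of single keratins (25 genes in 4 comparisons) kept their direction and their side of the threshold. With DESeq2 97 did and 3 newly passed, with limma-voom 96 did and 4 no longer passed, and with no filter 91 did and 9 newly passed. With the share outside genes as a term of the fit (the covariate) 11 no longer passed, 2 newly passed and 1 was reversed: Krt5 at E12.5 against E11.5 changed from -0.92 to 0.39. At that step the covariate also left 2 keratins higher (9 without it) and 0 lower (2 without it). The number lower at E14.5 than at E10.5 was 3, and 5 without the filter on low counts, when all 50 keratins were tested. Over the refits of single keratins without 1 library, 1169 kept their call, 20 no longer passed, 11 newly passed and 0 were reversed. Leaving out each library in turn gave 4 to 8 keratins higher and 3 to 4 lower at E11.5, 7 to 11 and 1 to 2 at E12.5, 18 to 21 and 2 to 3 at E14.5 against E12.5, and 23 to 24 and 3 to 4 at E14.5 against E10.5. Without division by exon length the basal share at E14.5 was 60.46% in place of 65.5%. The suprabasal share was then 2.09%, 2.07%, 2.25% and 22.4% at the 4 stages in place of 1.62%, 1.66%, 1.55% and 14.5%, and the share of Krt16, Krt17 and Krt75 1.02% at E11.5 and 7.63% at E14.5 in place of 1.17% and 10.2%. Replicate numbers do not pair the samples: the correlation of same-numbered deviations ran from -0.119 to 0.177. The replicate block changed 1 of 100 results, Krt75 at E12.5 against E11.5, which then passed (1.17, edgeR adjusted p = 0.0371). Depth limits the 21 keratins that were not tested, with at most 52 counts. The causes of these changes were not tested.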
